A study of Arabidopsis with 12 samples.

Results

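Transcripts of many SAUR genes (small auxin up RNA) accumulate within minutes of an auxin rise and are quickly degraded. The SAUR genes form a family of short, mostly intronless genes. Its members in Arabidopsis thaliana were taken as every row of the deposited expression table whose description names a SAUR-like auxin-responsive protein or whose gene symbol begins with SAUR. The rule found 79 of 32833 genes, 77 by their description and 2 by the symbol alone. Of these, 61 reached at least 1 TPM (transcript abundance corrected for gene length and scaled to a fixed library total) in at least 3 of the 12 libraries, the filter under which genes were tested. The other 18 did not. One row that passed, AT5G01830, carries the symbol SAUR21 but is described as an ARM repeat protein, and it passed no comparison. Only 16 of the 79 carry a SAUR symbol in the table, and the other names used here, such as SAUR71 for AT1G56150, are synonyms listed in RefSeq.

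Messenger RNA was sequenced from the leaf portions of seedlings that had grown for 10 days in white light. There were 4 groups of 3 libraries, since wild-type Col-0 and the mutant phyA-211 were each given sorbitol or sucrose. This mutant carries a mutant allele of the gene for phytochrome A, a photoreceptor for far-red light, and stands for the loss of the gene by that allele alone. Sugars were given at 30 mM in liquid medium, and all 4 groups spent the last 6 h in shade (red to far-red ratio 0.17), so nothing here measures shade itself. Sorbitol, a sugar alcohol, served at the same concentration as sucrose. The labels do not say whether the libraries of a group came from separate growth experiments, and the p-values therefore reflect differences between these libraries that may be purely technical.

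SAUR proteins of the SAUR19 subfamily bind and inhibit phosphatases of the PP2C-D clade. Those phosphatases remove an activating phosphate from plasma membrane proton pumps, so that a rise in SAUR protein raises pump activity, acidifies the cell wall and lets cells expand. In seedlings the family is known for the fast elongation of hypocotyls and petioles in shade, which PIF transcription factors and auxin drive through many SAUR genes, and for members that light induces in cotyledons while they open.

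PHYA transcript stood at 223 to 385 TPM in the 6 Col-0 libraries and at 32.5 to 44.9 TPM in the 6 phyA-211 libraries, so each library matched its genotype label. The defining leaf markers (RBCS1A, CAB1, CA1 and RCA) summed to between 20995 and 45389 TPM in every library. The lowest sum was in phyA-211 sucrose replicate 3, while the other 11 libraries were at 33758 TPM or more, and counts and calls that change without that library are given below. The 7 root markers summed to 18.1 to 50.1 TPM in Col-0 and 21.8 to 87.0 TPM in phyA-211, with NRT2.1 and IRT1 under the filter. The 4 markers of the shoot apical meristem summed to 14.7 to 22.9 TPM, with WUS and CLV3 under the filter. TPM keeps no read counts, so sequencing depth is unknown here and counting intervals are not given. In bulk leaf tissue, fewer cells of a type and less RNA per cell cannot be told apart.

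The 61 members past the filter covered a wide range of levels. Their means over the 12 libraries ran from 0.698 to 63.7 TPM with a median of 6.995 TPM, and 21 had a mean of at least 10 TPM, 37 a mean between 1 and 10 TPM and 3 a mean under 1 TPM. All 12 libraries reached 1 TPM for 52 members. The 6 highest means belonged to SAUR78 (63.7 TPM), SAUR6 (48.4 TPM), SAUR14 (31.3 TPM), SAUR16 (30.6 TPM), SAUR32 (28.7 TPM) and SAUR1 (27.3 TPM). SAUR78 encodes a protein known to interact with ethylene receptors and to promote growth. These 6 genes together made up 37.0% to 42.0% of the summed TPM of the family in the Col-0 libraries and 27.8% to 32.6% in the phyA-211 libraries. The remaining transcript was spread over many members, among them SAUR50 at 25.5 TPM, SAUR55 at 23.7 TPM and SAUR63, which promotes the elongation of hypocotyls and stamen filaments, at 21.8 TPM.

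At the bottom of the range, SAUR18, SAUR39 and SAUR47 were listed at 0 in every library. The highest single value among the 18 members under the filter was 1.43 TPM. Just inside the filter, with exactly 3 libraries at 1 TPM or more, lay SAUR25 and SAUR44, and just outside it, with exactly 2, lay SAUR54 and SAUR58. SAUR44 was listed at 0 in 9 libraries and at 9.87 TPM in Col-0 sorbitol replicate 3, 16.9 TPM in phyA-211 sorbitol replicate 1 and 14.6 TPM in phyA-211 sorbitol replicate 3. All of its transcript therefore lay in sorbitol libraries, but it was at 0 in the other 3 of those 6, and no fold is given for it.

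**Figure D1:**
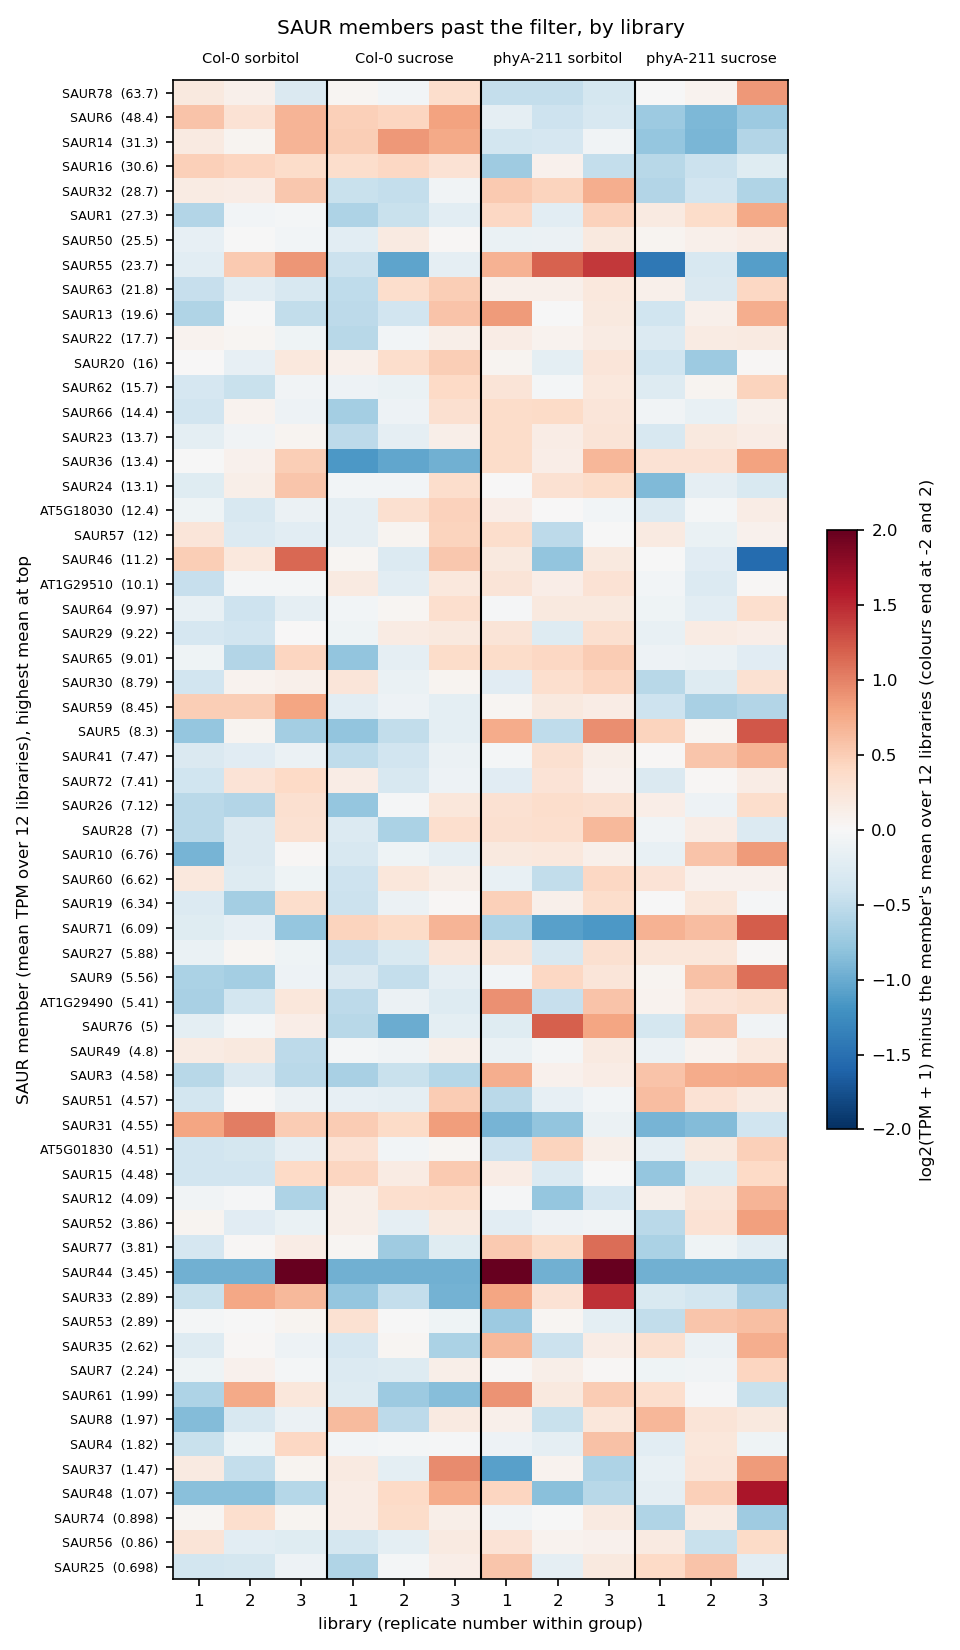
Level of the 61 SAUR members past the filter (rows, ordered by mean over the 12 libraries) in each library (columns, by group), with colour showing log2(TPM + 1) minus the member's own mean over the 12 libraries and the mean TPM beside each name. Rows run from SAUR78 at 63.7 TPM to SAUR25 at 0.698 TPM; SAUR6 and SAUR14 are blue or near white in all 6 phyA-211 columns, and SAUR32 is red with sorbitol and blue or near white with sucrose.

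The summed level of the family overlapped between all 4 groups. In Col-0 its 79 rows summed to 668 ± 62.2 TPM (SD, n = 3) with sorbitol and 665 ± 96.6 TPM with sucrose. In phyA-211 they summed to 708 ± 62.0 TPM with sorbitol and 638 ± 104 TPM with sucrose. Single libraries ran from 552 TPM in a phyA-211 sucrose library to 773 TPM in a Col-0 sucrose library. Without phyA-211 sucrose replicate 3, the 2 libraries left in that group summed to 552 and 607 TPM. Both lay below every sorbitol library, at 617.5 to 737 TPM in Col-0 and 646 to 770 TPM in phyA-211. They still overlapped the Col-0 sucrose libraries, which began at 588 TPM. Replicate 3 also had the highest sum in every other group. Of the 61 members, 17 passed the test in at least 1 of the 5 comparisons and 44 in none, while 37.1% of all genes tested passed in at least 1. The test was limma's, 2-sided, on log2(TPM + 1) with Benjamini-Hochberg adjustment over all 19862 genes past the filter, and a gene is said to have risen or fallen where its adjusted p was under 0.05. Changes below are on the log2(TPM + 1) scale with their SE, which understates the change of low genes.

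The first question was what sucrose did to the family in shaded wild-type leaves. In Col-0, sucrose lowered SAUR36, SAUR59, SAUR32 and SAUR33 and raised SAUR71. That is 1 member of 61 up (1.64%) and 4 down (6.56%), against a background of 12.1% of all genes up and 9.95% down. The median change of the 61 members was 0.03, beside 0.08 over all genes tested, and 32 members lay above 0. Of all 19862 genes tested, 11465 lay above 0. With median ratio scaling of the libraries the members' median was -0.06, beside -0.01 over all genes, so its sign rests on the scaling.

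SAUR36, also known as SAG201, is a senescence-associated gene whose product promotes leaf senescence. Its level was 12.1, 13.0 and 17.6 TPM in the Col-0 sorbitol libraries and 4.97, 5.41 and 5.80 TPM in the Col-0 sucrose libraries. The sucrose libraries all lay below the sorbitol libraries, and the change was -1.24 (SE 0.190, limma adjusted p = 0.00189). SAUR59 stood at 11.7, 11.7 and 14.6 TPM with sorbitol and 6.84, 7.43 and 6.91 TPM with sucrose, again without overlap, a change of -0.76 (SE 0.126, limma adjusted p = 0.00267). Both calls held when any 1 of the 6 libraries was left out.

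SAUR32 was among the most abundant members, at 30.4, 30.3 and 40.0 TPM with sorbitol in Col-0 and 19.6, 19.2 and 25.9 TPM with sucrose. The groups did not overlap, and the change was -0.61 (SE 0.150, limma adjusted p = 0.0139). That call was lost without Col-0 sorbitol replicate 3, Col-0 sucrose replicate 1 or Col-0 sucrose replicate 2, with adjusted p between 0.0512 and 0.0638. SAUR33 was low, at 1.5, 4.79 and 4.31 TPM with sorbitol and 0.98, 1.44 and 0.76 TPM with sucrose. The sorbitol library at 1.5 TPM almost touched the sucrose library at 1.44 TPM. The change of SAUR33 was -1.06 (SE 0.343, limma adjusted p = 0.0459), and the call was lost on leaving out any of the 6 libraries but Col-0 sorbitol replicate 1, with adjusted p from 0.0724 to 0.161. It was also lost with a pseudocount of 5, with no filter, with the replicate block and in the fit on the compared groups only.

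SAUR71 belongs to the SAUR41 subfamily, whose founding member promotes cell expansion. It was the only member that rose with sucrose in Col-0, from 4.28, 4.59 and 2.66 TPM to 7.49, 7.18 and 9.0 TPM. All 3 sucrose libraries lay above all 3 sorbitol libraries, and the change was 0.89 (SE 0.221, limma adjusted p = 0.0144). Without Col-0 sorbitol replicate 3, the lowest of the 6, adjusted p was 0.0644.

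**Figure D2:**
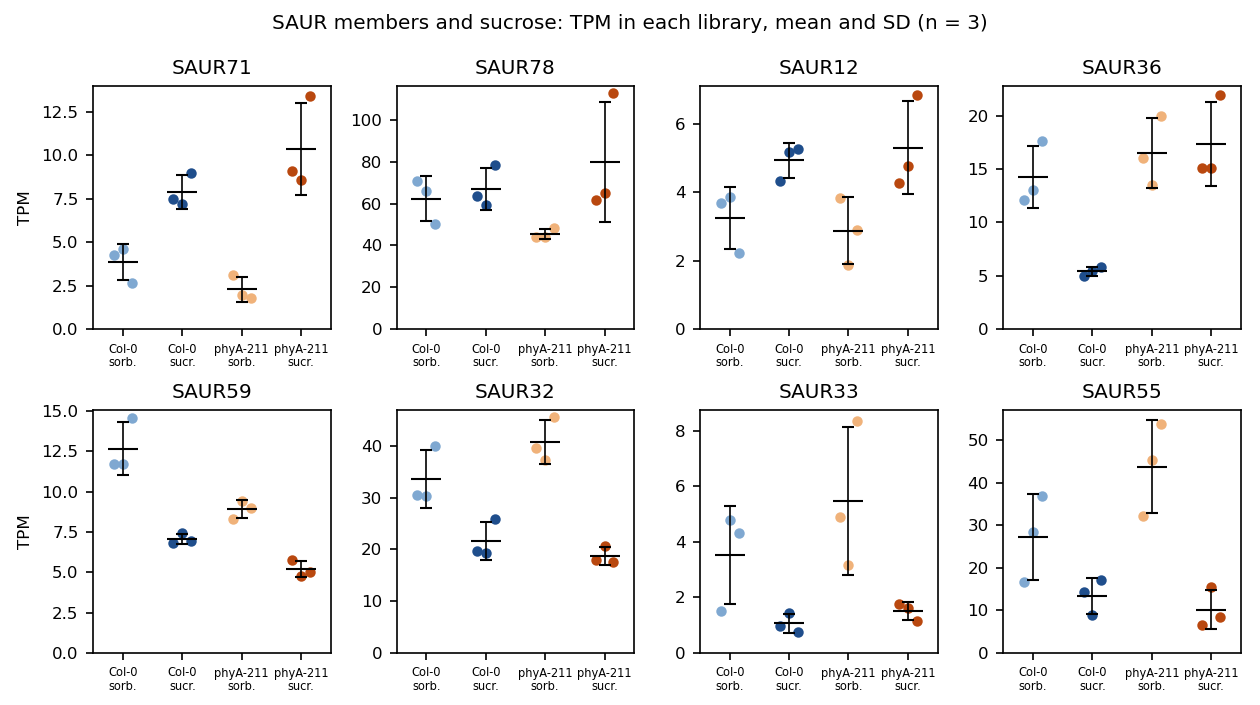
TPM of 8 SAUR members in each library (points), by group, with the mean and SD (bars, n = 3), each panel on its own linear axis from 0. SAUR36 stands at 4.97 to 5.80 TPM in Col-0 with sucrose and above 12 TPM in the other 3 groups, while SAUR71 is higher and SAUR59, SAUR32 and SAUR33 are lower with sucrose in both genotypes.

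The same question was asked in phyA-211. There sucrose raised SAUR71, SAUR78 and SAUR12 and lowered SAUR32, SAUR55, SAUR59, SAUR77, SAUR33, SAUR6, SAUR24 and SAUR14. That is 3 members of 61 up (4.92%) and 8 down (13.1%), against 16.9% of all genes up and 10.5% down. The median change of the members was -0.08, beside 0.11 over all genes, and 25 lay above 0. Of all 19862 genes tested, 11793 lay above 0. With median ratio scaling the members' median was -0.21, beside -0.02 over all genes. Without phyA-211 sucrose replicate 3, the library of low leaf markers, 1 member rose and 7 fell. In sucrose libraries of phyA-211 the root markers summed to 21.8 to 35.0 TPM, against 27.4 to 87.0 TPM with sorbitol, the highest in replicate 2. One root marker of the 5 tested, the aquaporin gene TIP2;3, fell (-1.98, limma adjusted p = 0.0411), a call that was lost without phyA-211 sorbitol replicate 2 or 3 or any 1 of the phyA-211 sucrose libraries, with no filter and on the compared groups only. Of the 5 root markers tested, 2 lay above 0 (COBL9 at 0.29 and SHR at 0.22) and 3 below. Their median change was -0.01, and none but TIP2;3 passed. The part of root cells in these SAUR changes was not tested.

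SAUR71 rose from 3.08, 1.93 and 1.81 TPM with sorbitol to 9.09, 8.57 and 13.4 TPM with sucrose. That was a change of 1.79 (SE 0.221, limma adjusted p = 0.00148) with every sucrose library above every sorbitol library. SAUR78, the most abundant member, was at 44.1, 44.2 and 48.3 TPM under sorbitol and 61.5, 65.0 and 113 TPM with sucrose. The highest of these, 113 TPM, was phyA-211 sucrose replicate 3. The change of SAUR78 was 0.74 (SE 0.213, limma adjusted p = 0.0249), and the call was lost without that library or without phyA-211 sorbitol replicate 1 or 3 (adjusted p 0.0633 to 0.0688) and in the fit on the compared groups only. SAUR12 went from 3.84, 1.88 and 2.89 TPM to 4.28, 4.78 and 6.86 TPM, a change of 0.72 (SE 0.233, limma adjusted p = 0.0409), which was lost on leaving out any of 4 of the 6 libraries. These were phyA-211 sorbitol replicates 2 and 3 and phyA-211 sucrose replicates 2 and 3, with adjusted p from 0.0668 to 0.146. The call of SAUR12 was also lost with no filter, with median ratio scaling, with the replicate block and on the compared groups only.

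Among the falls, SAUR55 changed most. In phyA-211 it went from 32.2, 45.5 and 53.7 TPM with sorbitol to 6.62, 15.4 and 8.55 TPM with sucrose, a change of -2.05 (SE 0.345, limma adjusted p = 0.00346). The groups were far apart, with the lowest sorbitol library above the highest sucrose library. In Col-0 the same gene stood at 16.7, 28.4 and 36.9 TPM with sorbitol and 14.2, 8.85 and 17.1 TPM with sucrose, and the groups overlapped (-0.95, limma adjusted p = 0.0687).

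SAUR32 stood at 39.7, 37.2 and 45.5 TPM with sorbitol and 17.9, 20.6 and 17.6 TPM with sucrose, a change of -1.08 (limma adjusted p = 0.00221). SAUR59 stood at 8.29, 9.40 and 8.99 TPM with sorbitol and 5.76, 4.79 and 5.04 TPM with sucrose, a change of -0.68 (limma adjusted p = 0.00484). Neither pair of groups overlapped, and the calls of SAUR71, SAUR55, SAUR32 and SAUR59 in phyA-211 held when any 1 of the 6 libraries was left out. SAUR33 went from 4.88, 3.15 and 8.37 TPM to 1.75, 1.62 and 1.14 TPM, a change of -1.30 (limma adjusted p = 0.0181). Its call was lost without phyA-211 sorbitol replicate 3 (adjusted p = 0.0812) or phyA-211 sucrose replicate 3 (adjusted p = 0.0590).

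SAUR77, from the same small subfamily as SAUR78, fell from 5.48, 4.92 and 8.80 TPM to 1.92, 3.28 and 2.89 TPM, a change of -0.98 (SE 0.254, limma adjusted p = 0.0164). Without phyA-211 sorbitol replicate 3, the highest library, adjusted p was 0.0765. SAUR76, the third of the subfamily, stood at 7.93 ± 4.0 TPM with sorbitol and 4.87 ± 1.90 TPM with sucrose and did not pass the test, so within that subfamily SAUR78 was called upward and SAUR77 downward. The remaining 3 falls were small. SAUR6 went from 36.2 ± 3.04 to 25.5 ± 1.74 TPM (-0.49, limma adjusted p = 0.0225), SAUR24 of the SAUR19 subfamily from 15.1 ± 2.08 to 9.19 ± 2.45 TPM (-0.69, limma adjusted p = 0.0461) and SAUR14 from 24.1 ± 2.91 to 16.6 ± 2.02 TPM (-0.51, limma adjusted p = 0.0461). Each of the 3 calls was lost on leaving out some single library. For SAUR6 these were phyA-211 sorbitol replicates 1 and 3 and sucrose replicate 2, for SAUR24 every library but phyA-211 sucrose replicate 2, and for SAUR14 every library but phyA-211 sucrose replicate 3. The calls of SAUR24 and SAUR14 were also lost with no filter and on the compared groups only, and that of SAUR14 with a pseudocount of 5.

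SAUR71 rose and SAUR32, SAUR33 and SAUR59 fell in both genotypes, out of 3 members that rose and 9 that fell in either. The fall of SAUR33 in Col-0 was held by 3 of 12 alternatives. The matching counts of overlap over all genes were not made. The difference between the genotypes was tested directly as the interaction, that is, how far the sucrose change of the mutant exceeded that of the wild type. No member passed it, against 0.0101% of all genes above 0 and 0% below 0 (2 genes in all). At an unadjusted p under 0.05 there were 8 of the 61 members and 792 of all 19862 genes. The smallest p belonged to SAUR36, for which the interaction was 1.31 (SE 0.268, unadjusted p = 0.000412, limma adjusted p = 0.548). In phyA-211 SAUR36 stood at 16.1, 13.5 and 19.99 TPM with sorbitol and 15.1, 15.1 and 21.96 TPM with sucrose. The mutant groups overlapped where the wild-type groups did not, but the difference between genotypes did not pass the adjusted test. SAUR14 was next (-0.91, limma adjusted p = 0.820), and the other 6 had an adjusted p of 0.999, among them SAUR55 (-1.09) and SAUR71 (0.90).

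**Figure D3:**
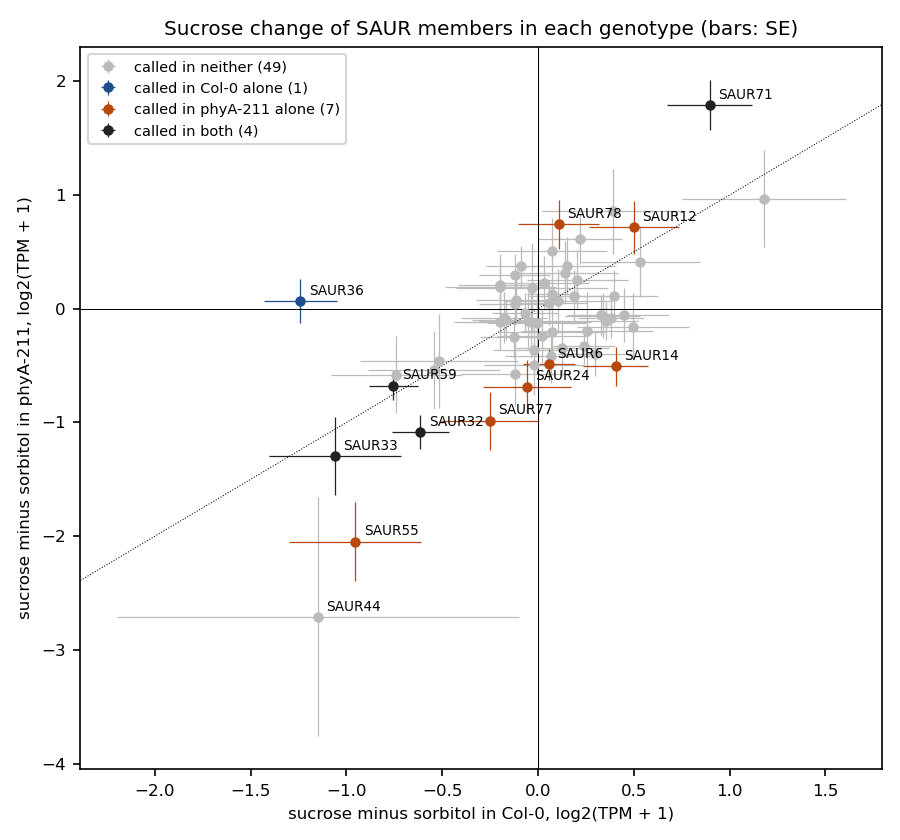
Sucrose minus sorbitol, on the log2(TPM + 1) scale, in Col-0 (horizontal) and phyA-211 (vertical) for the 61 members, with SE bars on both axes and colour by where the member passed the test. Of the 61, 4 passed in both genotypes, 1 in Col-0 alone (SAUR36, at -1.24), 7 in phyA-211 alone and 49 in neither.

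The next question was how loss of phytochrome A changed the family under each sugar. With sorbitol, SAUR6, SAUR31 and SAUR16 were lower and SAUR3 higher in phyA-211 than in Col-0. That is 1 member of 61 up (1.64%) and 3 down (4.92%), against 0.775% of all genes up and 1.38% down. The median difference of the members was 0.25, beside 0.09 over all genes, and 45 of the 61 lay above 0. Of all 19862 genes tested, 13109 lay above 0. With median ratio scaling of the libraries 0 members rose and 3 fell. With sucrose, SAUR6, SAUR14, SAUR31 and SAUR16 were lower and SAUR36, SAUR3, SAUR41 and SAUR1 higher, 4 members each way (6.56% up and 6.56% down) against 4.15% of all genes up and 3.25% down. The median difference was 0.12 both over the members and over all genes. Above 0 lay 40 of the 61 members and 13121 of all 19862 genes. With median ratio scaling the members' median was 0.19 with sorbitol and 0.01 with sucrose, beside 0.02 over all genes for both sugars. Without phyA-211 sucrose replicate 3, 2 members rose and 5 fell. All 4 leaf markers also lay below 0 in phyA-211 against Col-0 under both sugars. Their medians were -0.31 with sorbitol and -0.58 with sucrose, and none passed the adjusted test. RBCS1A and CAB1 each differed by -0.11 under sorbitol, and by -0.37 and -0.006 under sucrose. Mutant CAB1 levels under sucrose were 25459, 22687 and, in replicate 3, 12755 TPM. Wild-type levels ran from 18810 to 20062 TPM, so CAB1 lay below 0 under sucrose only through phyA-211 sucrose replicate 3. CA1, a carbonic anhydrase, stood at 1322 ± 163 TPM in Col-0 and 901 ± 82.4 TPM in phyA-211 under sorbitol, and 1457 ± 131 and 852 ± 345 TPM under sucrose. For RCA, Rubisco activase, the wild-type and mutant levels were 3742 ± 951 and 2585 ± 358 TPM under sorbitol, and 4201 ± 314 and 2553 ± 934 TPM under sucrose. With sucrose 2 of the 4 markers had an unadjusted p under 0.05, and the part of these markers in the SAUR differences was not tested.

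SAUR6 was the second most abundant member by mean and was lower in phyA-211 under both sugars. With sorbitol it stood at 66.8, 54.9 and 72.4 TPM in Col-0 and 39.4, 33.4 and 35.6 TPM in phyA-211 (-0.82, SE 0.136, limma adjusted p = 0.00905). With sucrose it stood at 62.2, 60.8 and 79.1 TPM in Col-0 and 26.5, 23.5 and 26.5 TPM in phyA-211 (-1.36, SE 0.136, limma adjusted p = 0.000158). Under both sugars every mutant library lay below every wild-type library. The call with sorbitol was lost without Col-0 sorbitol replicate 1 or phyA-211 sorbitol replicate 3 (adjusted p 0.0537 to 0.0582), while that with sucrose held without any 1 library.

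SAUR14 and SAUR16 lie in the same gene array and belong, with SAUR50, to the members known to be induced by light in cotyledons. SAUR14 stood at 41.1, 53.2 and 49.6 TPM in Col-0 with sucrose and 16.3, 14.8 and 18.8 TPM in phyA-211 with sucrose (-1.47, SE 0.171, limma adjusted p = 0.000378). With sorbitol its values of 32.8, 30.0 and 46.6 TPM in Col-0 and 22.1, 22.7 and 27.4 TPM in phyA-211 did not overlap either, but the difference did not pass the test (-0.56, limma adjusted p = 0.145). SAUR16 stood at 41.4, 39.7 and 37.9 TPM in Col-0 and 17.5, 31.1 and 20.8 TPM in phyA-211 with sorbitol (-0.79, SE 0.172, limma adjusted p = 0.0368). With sucrose it stood at 37.7, 39.5 and 36.1 TPM in Col-0 and 19.6, 21.5 and 24.8 TPM in phyA-211 (-0.76, limma adjusted p = 0.0216). The mutant libraries of SAUR16 lay below all wild-type libraries under both sugars, though 5 single libraries of the sorbitol comparison and 4 of the sucrose comparison each ended the call when left out (adjusted p up to 0.178 and 0.0963). With sorbitol only phyA-211 sorbitol replicate 2 could be left out, and with sucrose only Col-0 sucrose replicate 1 or phyA-211 sucrose replicate 3. The sorbitol call was also lost with no filter and on the compared groups only. SAUR50 had levels of 21.9 to 29.2 TPM over all 12 libraries and passed no comparison.

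SAUR31 was a low member with a large difference. With sorbitol it stood at 7.51, 8.99 and 5.97 TPM in Col-0 and 1.59, 1.86 and 3.53 TPM in phyA-211 (-1.38, SE 0.241, limma adjusted p = 0.0120). With sucrose it stood at 6.02, 5.39 and 7.78 TPM in Col-0 and 1.59, 1.70 and 2.73 TPM in phyA-211 (-1.31, limma adjusted p = 0.00736). The 6 mutant libraries all lay below the 6 wild-type libraries. The call with sorbitol was lost without Col-0 sorbitol replicate 1 or 2 (adjusted p 0.0605 to 0.0629) and on the compared groups only.

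In the other direction, SAUR3 stood at 2.53, 3.25 and 2.57 TPM in Col-0 and 7.55, 4.51 and 4.75 TPM in phyA-211 with sorbitol (0.78, SE 0.179, limma adjusted p = 0.0487). With sucrose it stood at 2.31, 2.82 and 2.51 TPM in Col-0 and 6.70, 7.71 and 7.78 TPM in phyA-211 (1.24, limma adjusted p = 0.00165). Its mutant libraries were all higher under both sugars, but the sorbitol call was lost on leaving out any library but phyA-211 sorbitol replicate 2, with adjusted p up to 0.213. It was kept by 2 of 12 alternatives, being lost also with a pseudocount of 5, no filter, median ratio scaling, the replicate block and the compared groups only. SAUR36 differed with sucrose, the condition in which it was low in Col-0, at 4.97 to 5.80 TPM in Col-0 and 15.1 to 21.96 TPM in phyA-211 (1.51, SE 0.190, limma adjusted p = 0.000682). The calls of SAUR6, SAUR14, SAUR36, SAUR3 and SAUR31 with sucrose held without any 1 library.

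SAUR41, which promotes cell expansion, stood at 4.75, 5.27 and 6.61 TPM in Col-0 and 7.31, 11.1 and 12.3 TPM in phyA-211 with sucrose (0.76, SE 0.186, limma adjusted p = 0.0305). SAUR1 stood at 16.6, 19.0 and 22.3 TPM in Col-0 and 29.7, 33.9 and 45.0 TPM in phyA-211 with sucrose (0.86, SE 0.222, limma adjusted p = 0.0376). The groups of both genes did not overlap. For SAUR41 the call was lost without Col-0 sucrose replicate 1 or 2 or phyA-211 sucrose replicate 2 or 3, and for SAUR1 without any library but phyA-211 sucrose replicate 1, with adjusted p up to 0.119 and 0.129. Both were lost on the compared groups only, and SAUR1 also with no filter and with median ratio scaling. Just short of the threshold with sucrose were SAUR9, a member known to inhibit PP2C-D phosphatases (0.89, limma adjusted p = 0.0541), and SAUR20 (-0.68, limma adjusted p = 0.0562).

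**Figure D4:**
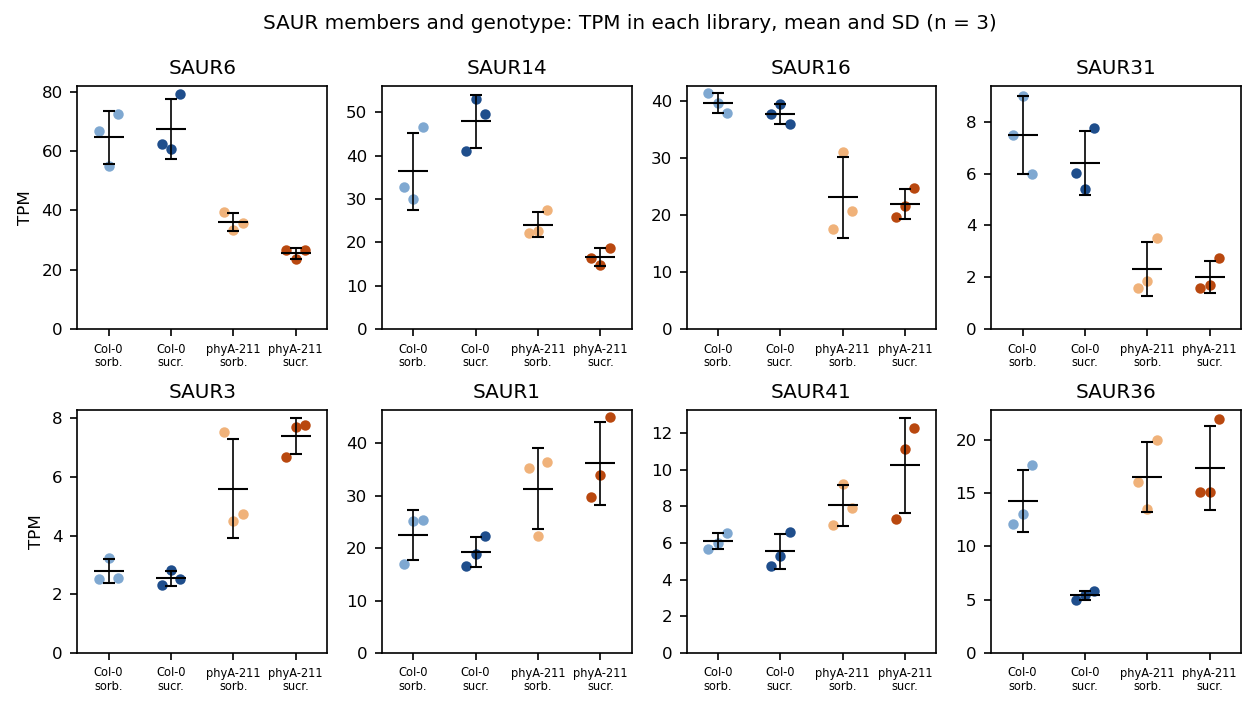
TPM of 8 SAUR members in each library (points), by group, with the mean and SD (bars, n = 3), each panel on its own linear axis from 0. SAUR6, SAUR16 and SAUR31 are lower and SAUR3 higher in all 6 phyA-211 libraries than in all Col-0 libraries of the same sugar, and SAUR14, SAUR1, SAUR41 and SAUR36 passed the genotype test with sucrose alone.

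SAUR6, SAUR16 and SAUR31 fell and SAUR3 rose under both sugars, out of 4 members that fell and 4 that rose under either. SAUR6, SAUR14 and SAUR36 were called both for sucrose and for genotype. The sucrose and genotype comparisons share libraries, so these counts are not independent of each other. The matching counts over all genes were not made, so these overlaps have no background beside them.

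Many SAUR genes stand in tandem arrays, and 39 of the 79 members lie in 10 arrays with at most 2 protein-coding genes between neighbours in the RefSeq gene order. Some members of an array were called and their neighbours were not. In the array on chromosome 4 from SAUR13 to SAUR16, the genotype difference with sucrose ran from -1.47 for SAUR14 to 0.26 for SAUR13, with 2 of 4 members called downward. In the array on chromosome 2 of SAUR7, SAUR6 and SAUR12, SAUR6 was lower in phyA-211 under both sugars, while SAUR7 and SAUR12 were not called for genotype. The array on chromosome 4 from SAUR49 to SAUR5 had 6 members tested, all above 0 in phyA-211 against Col-0 under both sugars, from 0.05 to 0.85 with sorbitol and 0.02 to 1.24 with sucrose, although with median ratio scaling 4 and 3 of the 6 did. Of these, SAUR3 passed under both sugars and SAUR1 with sucrose. SAUR5 stood at 10.9 ± 5.32 TPM in phyA-211 and 5.23 ± 2.08 TPM in Col-0 with sorbitol, with overlapping libraries. With sorbitol every tested member also lay above 0 in the arrays SAUR61 to SAUR65, AT1G29490 to AT1G29510, SAUR29 to SAUR26 and SAUR19 to SAUR24. In the last of these, 5 of 6 did with median ratio scaling. Over all 19862 genes tested, 13109 lay above 0 with sorbitol and 13121 with sucrose.

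**Figure D5:**
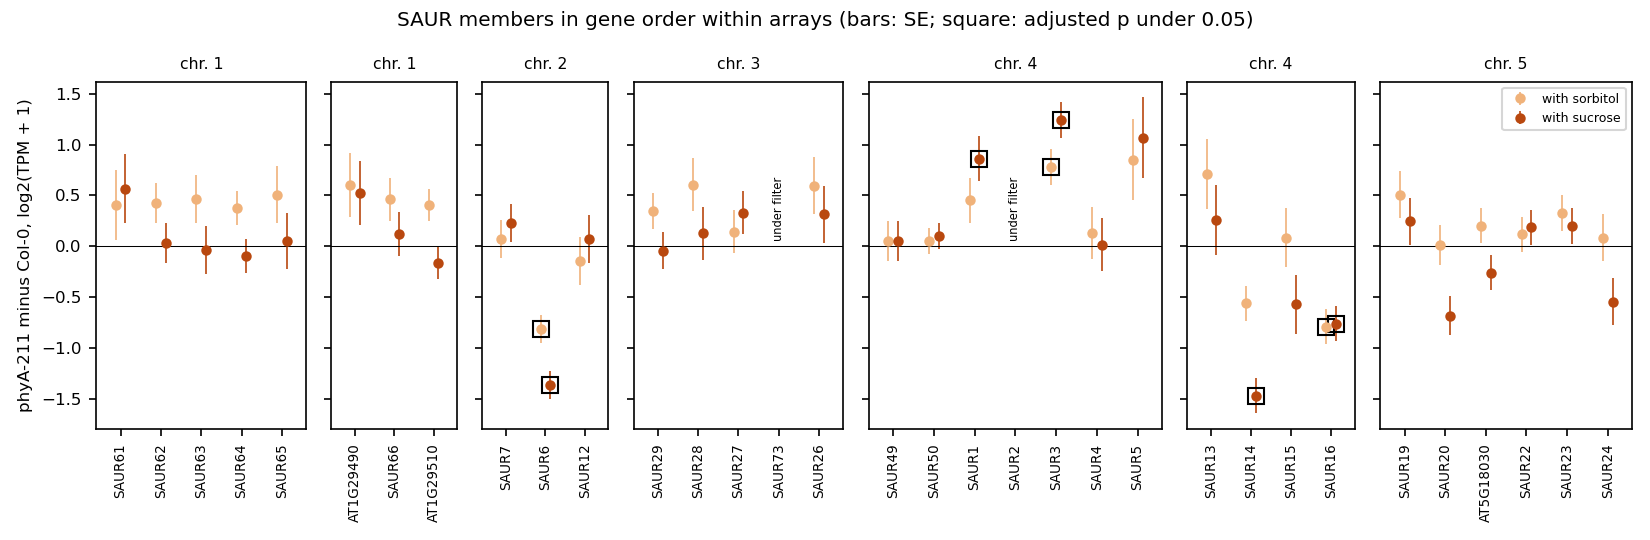
Genotype difference (phyA-211 minus Col-0, log2(TPM + 1)) of each member tested in the 7 arrays of at least 3 members, in gene order, for sorbitol and sucrose. Some neighbours differ in sign, as for SAUR13 at 0.26 (not called) and SAUR14 at -1.47 with sucrose. All 6 tested members from SAUR49 to SAUR5 lie above 0 (4 with sorbitol and 3 with sucrose under median ratio scaling). With sorbitol so do all tested members of the arrays SAUR61 to SAUR65, AT1G29490 to AT1G29510, SAUR29 to SAUR26 and SAUR19 to SAUR24.

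The SAUR19 to SAUR24 subfamily, the best known growth promoters of the family, was expressed at 3.49 to 22.3 TPM per member and library. Its 6 genes on chromosome 5 summed in Col-0 to 77.2 ± 8.42 TPM with sorbitol and 81.1 ± 15.7 TPM with sucrose. In phyA-211 they summed to 87.2 ± 4.87 TPM with sorbitol and 71.5 ± 11.2 TPM with sucrose. The ranges of the 2 sugars overlapped in Col-0 and not in phyA-211, where the sucrose libraries summed to 59.1, 74.5 and 80.9 TPM and the sorbitol libraries to 88.8, 81.8 and 91.2 TPM. Only SAUR24 passed a test, and all 6 changes with sucrose in phyA-211 lay below 0 (-0.69 to -0.08), also with median ratio scaling. These genes are near-identical copies whose reads the counting may have split, so the single members are less certain than their sum.

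The SAUR61 to SAUR68 subfamily with SAUR75, which holds SAUR63, summed to 74.2 ± 8.83 TPM in Col-0 and 104 ± 6.13 TPM in phyA-211 with sorbitol. The Col-0 libraries were at 65.5, 73.9 and 83.1 TPM and those of phyA-211 at 108, 96.8 and 107 TPM, without overlap. The median ratio factors were 0.886 for the Col-0 library at 83.1 TPM and 1.10 for the phyA-211 library at 96.8 TPM. Divided by these factors, the sums of those libraries change order, so the separation of the sums rests on the scaling. All 8 members tested lay above 0 for genotype with sorbitol (0.37 to 0.61), as they did with median ratio scaling, yet none passed the test. The median difference of the 8 was 0.44, beside 0.09 over all genes, and with sucrose the sums were 87.7 ± 20.9 TPM in Col-0 and 88.4 ± 13.0 TPM in phyA-211, or a mean of 81.1 TPM without replicate 3 of the latter. The SAUR25 to SAUR29 genes, in a subfamily linked to growth at different temperatures, summed with sorbitol to 25.3 ± 6.11 TPM in Col-0 and 35.6 ± 4.92 TPM in phyA-211. All 5 lay above 0 (0.14 to 0.61), none passed, and the groups overlapped. Some copies in both subfamilies are also much alike, and reads may have been split between them.

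A set of SAUR10, SAUR14, SAUR15, SAUR16 and SAUR50, some of them induced by light in cotyledons, summed to less in phyA-211. It reached 109 ± 10.8 TPM in Col-0 and 83.8 ± 7.68 TPM in phyA-211 with sorbitol, and 123 ± 10.4 TPM in Col-0 and 79.2 ± 10.2 TPM in phyA-211 with sucrose. The wild-type libraries lay above the mutant libraries under both sugars, at 103 to 122 against 75.0 to 88.5 TPM with sorbitol and 112 to 132 against 70.1 to 90.2 TPM with sucrose (70.1 to 77.2 TPM in phyA-211 without replicate 3). With sorbitol 3 of the 5 members lay above 0, with a median of 0.05 beside 0.09 over all genes, and with sucrose 2 of 5, with a median of -0.57 beside 0.12. The lower sum with sorbitol was thus that of SAUR14 and SAUR16, and only these were called lower, SAUR16 under both sugars and SAUR14 with sucrose. SAUR10 lay higher in phyA-211 (7.34 ± 0.337 against 4.83 ± 1.84 TPM with sorbitol) without passing the test. SAUR15, the classic auxin-induced SAUR-AC1, stood at 3.86 to 5.87 TPM as group means and passed no comparison.

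The partners of SAUR proteins were examined beside the family. All 9 PP2C-D phosphatase genes were tested. For sucrose in Col-0, 0 rose and 1 fell (0% and 11.1%, against 12.1% and 9.95% of all genes). For sucrose in phyA-211, 2 rose and 1 fell (22.2% and 11.1%, against 16.9% and 10.5%). For genotype none fell, and 1 rose with sorbitol (11.1% against 0.775%) and 2 with sucrose (22.2% against 4.15%). Their median genotype difference with sucrose was 0.34, beside 0.12 over all genes. PP2C-D1 (AT5G02760) had the largest changes. Its wild-type values were 122, 115 and 100.2 TPM under sorbitol and 146, 118 and 122 TPM under sucrose. Its values in phyA-211 were 177, 188 and 192 TPM under sorbitol and 370.5, 355 and 410.4 TPM under sucrose. The mutant libraries were above all wild-type libraries, and within the mutant the sucrose libraries were above the sorbitol libraries. It rose with sucrose in phyA-211 (1.02, limma adjusted p = 0.00121) and was higher in phyA-211 with sorbitol (0.73, limma adjusted p = 0.00804) and with sucrose (1.55, limma adjusted p = 3.24e-05). PP2C-D6 fell with sucrose in Col-0 (-0.60, limma adjusted p = 0.00591) and in phyA-211 (-0.47, limma adjusted p = 0.0174). PP2C-D5 rose with sucrose in phyA-211 (0.42, limma adjusted p = 0.0477), and PP2C-D2 was higher in phyA-211 with sucrose (0.49, limma adjusted p = 0.0162). Without phyA-211 sucrose replicate 3 the call of PP2C-D5 was lost (0.30, limma adjusted p = 0.156), while those of PP2C-D1, PP2C-D2 and PP2C-D6 were kept. The PP2C-D5 call was also lost with no filter, median ratio scaling, the replicate block, the compared groups only, and without either of the other phyA-211 sucrose libraries or phyA-211 sorbitol replicate 1 or 3. Leaving out phyA-211 sorbitol replicate 3 also ended the call of PP2C-D6 in phyA-211 and of PP2C-D1 with sorbitol, and leaving out Col-0 sucrose replicate 2 or 3 or phyA-211 sucrose replicate 2 that of PP2C-D2. On the compared groups only, the calls of PP2C-D6 in phyA-211 and of PP2C-D2 were lost.

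Of 11 plasma membrane proton pump genes, 9 were tested and 1 passed in any comparison. AHA11 rose with sucrose in phyA-211, from 67.7, 86.1 and 67.4 TPM to 113, 120.4 and 156 TPM (0.80, limma adjusted p = 0.00602), and passed also without replicate 3 of the sucrose group (0.66, limma adjusted p = 0.0165). That is 11.1% of the 9, against 16.9% of all genes up in that comparison. None of the 8 genes for auxin receptors and TMK kinases passed in any comparison. Over all genes tested, 37.1% passed in at least 1 of the 5 comparisons.

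Of 12 transcription factors that act on SAUR genes, 3 members of the PIF family passed for sucrose or genotype in more than 1 comparison and 1 in a single comparison. PIF4, which drives SAUR genes in shade and warmth, was lower in phyA-211 with sorbitol (38.1 ± 6.60 against 67.1 ± 10.1 TPM; -0.80, limma adjusted p = 0.0233) and with sucrose (34.9 ± 4.74 against 54.1 ± 6.54 TPM; -0.62, limma adjusted p = 0.0379). PIF7, a main factor of shade avoidance, was lower with sorbitol (5.12 ± 1.34 against 12.4 ± 2.65 TPM; -1.13, limma adjusted p = 0.0332). PIF3 fell with sucrose in Col-0 (-0.71, limma adjusted p = 0.00552) and was higher in phyA-211 than in Col-0 with sucrose (0.79, limma adjusted p = 0.00655). PIF5 fell with sucrose in Col-0 (-0.48, limma adjusted p = 0.0181) and in phyA-211 (-0.40, limma adjusted p = 0.0337). The other 8 transcription factors passed in no comparison. By comparison, 0 of the 12 rose and 2 fell for sucrose in Col-0 (16.7% down against 9.95% of all genes), 0 rose and 1 fell for sucrose in phyA-211 (8.33% against 10.5%), 0 rose and 2 fell for genotype with sorbitol (16.7% against 1.38%), and 1 rose and 1 fell for genotype with sucrose (8.33% each, against 4.15% up and 3.25% down). Without phyA-211 sucrose replicate 3 the calls of PIF5 in phyA-211 (limma adjusted p = 0.0915) and of PIF4 with sucrose (limma adjusted p = 0.0889) were lost and that of PIF3 was kept. Each call of PIF4, PIF5 and PIF7 was lost without any 1 of at least 4 single libraries, and the genotype call of PIF3 on the compared groups only. On the compared groups only, the calls of PIF4, of PIF7 and of PIF5 in phyA-211 were lost too, and that of PIF7 also with no filter and with the replicate block.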

How the data were processed

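The authors deposited 1 table of TPM for 32833 genes in 12 libraries, per the file headers, with columns that sum to 998274.11 to 998846.46. Per the submitters' processing notes, the names DESeq2, HISAT2, fastp and cutadapt and the build TAIR10 are listed with neither versions nor roles. Not given in the sources used here: the program and annotation behind the TPM, and whether counting used strand. TPM holds no depth, so the precision of the tests rests on the spread between libraries, which the fit pooled over the groups.

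Every column was matched to a library by its name, and 0 columns were left over. Genes at 1 TPM or more in at least 3 libraries (19862) were fitted on log2(TPM + 1) with limma 3.58.1 in R 4.3.3 (4 group means, trend, 8 residual and 3.68 prior degrees of freedom, no replicate block). The fit was also run on simulated data with independent noise per gene and library, without shared replicate shifts, and nothing here rests on it. The smallest exact permutation p for 3 libraries against 3 is 0.1, so no single sum was tested. Subfamily and marker sums are means ± SD (n = 3) or ranges.

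Symbols came from the table and, for 61 members, from RefSeq synonyms of assembly TAIR10.1, used only for names and gene order. AT5G01830 is listed under the symbol SAUR21 but described as an ARM repeat protein, and SAUR20 has no description; both entered by symbol. The sources disagree on which of AT1G29510 and AT1G29490 is SAUR68, so both are called by locus. Protein and promoter sequences were not used here.

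The members and lists were chosen with earlier results of these data known. All members past the filter could be named. Those past adjusted p 0.05 in any comparison, the 6 with the highest means, 4 subfamilies, and list genes past the threshold are named with values. SAUR5, SAUR9, SAUR20, SAUR44, SAUR48 and SAUR76 were singled out after their values were seen. Other pseudocounts, no filter, median ratio scaling, a replicate block, fits on the compared groups only, and leaving out each library were tried as alternatives.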

Additional observations from a re-analysis of the deposited data

How the results depend on the processing

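Of 28 gene calls, none changed sign under any alternative. Calls kept numbered 28 with a pseudocount of 0.1, 25 with a pseudocount of 5, 25 with median ratio scaling, 25 with the replicate block, 21 with no filter and 18 on the compared groups only. SAUR36 and SAUR59 in Col-0, SAUR71, SAUR32, SAUR55 and SAUR59 in phyA-211, and SAUR6, SAUR14, SAUR36, SAUR3 and SAUR31 for genotype with sucrose passed under all of these and without any single library. The rise of SAUR12, of SAUR3 with sorbitol and of SAUR1 was lost under median ratio scaling, which moved the median of all genes by -0.13 for sucrose in phyA-211 and by -0.11 for genotype with sucrose; the members above 0 then numbered 17 and 31 of 61, in place of 25 and 40, and 25 and 41 in place of 32 and 45 for sucrose in Col-0 and genotype with sorbitol. Members that rose with sucrose in Col-0 numbered 2 with a pseudocount of 0.1 and 2 on the compared groups only. For genotype with sorbitol, 0 rose with a pseudocount of 5, with no filter, with median ratio scaling, with the replicate block and on the compared groups only, where 1 fell. On the compared groups only, 1 rose with sucrose in phyA-211 and 2 rose for genotype with sucrose. With 1 library left out, 1 to 3 members rose and 2 to 6 fell with sucrose in Col-0, 1 to 6 rose and 3 to 7 fell in phyA-211, 0 to 1 rose and 0 to 3 fell for genotype with sorbitol, and 2 to 5 rose and 3 to 5 fell for genotype with sucrose. The causes were not tested. Deviations of same-numbered samples correlated at r = -0.13 to 0.31, not above 0.1 for every number of any comparison. The family sums nevertheless followed replicate number in part. Replicate 3 had the highest sum in each of the 4 groups, from 737 TPM (Col-0 sorbitol) to 773 TPM (Col-0 sucrose). Replicate 1 had the lowest sum in every group but phyA-211 sorbitol, whose lowest was replicate 2 (646 TPM). What lay behind this order was not tested. No interaction call appeared under any alternative. Depth is unknown, so how far it limits the low members could not be measured.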

Other observations

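One further gene, AT2G35290, carries SAUR79 among its RefSeq synonyms but was not found by the rule. Its level was 0.75 to 1.11 TPM in Col-0 with sorbitol, 1.32 to 2.21 TPM in Col-0 with sucrose, 0.33 to 0.73 TPM in phyA-211 with sorbitol and 0.45 to 2.70 TPM in phyA-211 with sucrose. SAUR48, past the filter but called in no comparison, was listed at 0, 0 and 0.21 TPM in Col-0 with sorbitol and at 0.99, 1.35 and 1.99 TPM in Col-0 with sucrose.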
